A study of Mus musculus with 14 samples.

Results

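Mast cells of untreated mouse ear skin expressed 16 protein-coding genes that were low or not detected in the mast cells labelled bone marrow mast cells, which came from skin treated with MC903. Each of the 16 genes reached at least 10 CPM in all 5 untreated resident libraries and stayed under 3 CPM in all 4 bone marrow libraries. CPM are a gene's counts per 1000000 counts of its library. The 16 genes were taken from 55487 genes in the table, of which 21903 were protein-coding and 5845 were protein-coding with at least 10 CPM in every untreated resident library. Grik2, Colec11, Olr1 and the Mrgpr genes also lay outside the set because they were left out by name. The 16 genes were Bex4, Pcp4l1, Mapk12, Mst1r, Aard, Osgin1, Pmaip1, Cdh9, Necab2, Sgcd, Ano2, Lrrc66, Ppfibp1, Cyp4b1, Col12a1 and Fgf12. Since both groups' values chose the genes, the difference between untreated resident and bone marrow cells is given below as a description and carries no test.

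The study profiled sorted mouse mast cells by RNA sequencing. The groups were mast cells labelled resident from untreated mice (libraries 1 to 5), resident mast cells from mice treated with MC903 (libraries 6 to 10), and cells labelled bone marrow mast cells from mice treated with MC903 (libraries 11, 13, 14 and 15). MC903 is calcipotriol, a vitamin D analogue that produces a dermatitis resembling atopic dermatitis when applied to mouse skin. Each library was made from at most 100 cells sorted from both ears. The protocol names resident mast cells and integrin β7-positive mast cells, and no label says that the bone marrow group is the integrin β7-positive one. No untreated bone marrow group was among the samples, so the cell label and the treatment differ together between libraries 1 to 5 and libraries 11 to 15. Strain, sex, age, genotype and the length of the treatment are not given in the sources used here. No label states that the libraries of a group came from separate animals, so every p-value below measures the spread between these samples, which may be technical.

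Resident skin mast cells belong to the connective tissue type, which settles in the tissue and is filled with granules of proteases, histamine and heparin. Mast cell progenitors made in the bone marrow reach tissues through the blood and use integrin β7 in homing. The 16 genes are not a known pathway. By their textbook roles they fall into signalling proteins (the kinase Mapk12, the receptor Mst1r and the sodium channel partner Fgf12), calcium and ion handling (Ano2, Necab2 and Pcp4l1), adhesion and matrix (Cdh9, Sgcd, Ppfibp1 and Col12a1), stress and metabolism (Osgin1, Pmaip1 and Cyp4b1), and genes whose role in mast cells is little known (Bex4, Lrrc66 and Aard).

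Library totals ran from 13068078 counts (library 8) to 31781926 counts (library 13). At these totals a count of 0 allows a level of up to 0.0944 CPM in library 13 and up to 0.23 CPM in library 8, taking 3 counts as the limit. Copies made by amplification carry no molecular identifiers here, and such limits therefore cover counting error only. All 10 mast cell markers examined, among them Kit, Fcer1a and Cpa3, stood at 10 CPM or more in every library of each group. Itgb7, the gene of integrin β7, lay between 248 and 311 CPM in untreated, between 171 and 260 CPM in MC903 resident and between 391 and 626 CPM in bone marrow libraries, so it was present in every group and highest in the bone marrow libraries. Bone marrow library 15 stood apart: its 6 macrophage and dendritic cell markers summed to 7798 CPM, against a group median of 242 CPM and a range of 55.5 to 113 CPM in untreated libraries. Bone marrow library 11 held the most counts of the basophil protease Mcpt8, at 955 CPM against a group median of 133 CPM. Untreated libraries did not exceed 36.6 CPM. Cd200r3 and Prss34, which complete the 3 basophil markers, did not peak there. Within the bone marrow group Cd200r3 was highest in library 14 (552 CPM), with a median of 498 CPM against 521 CPM in untreated libraries. Prss34 was highest in library 13 (14.3 CPM) and reached 52.0 CPM in MC903 resident library 7. Summed over the 3 markers, library 11 was the highest bone marrow library, at 1473 CPM against a group median of 657 CPM. In MC903 resident libraries 7 and 8 a count was seen for 34560 and 35246 genes, the most in the series.

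Promoter sequence was available for 13 of the 16 genes (19 windows of 300 bases, from 250 before to 50 after the RefSeq start, GRCm38.p6). Short motifs were searched on both strands, where N stands for any base. The AP-1 type motif TGANTCA occurred in 4 of the 19 windows (21.1%; Cyp4b1, Fgf12, Necab2 and Osgin1) and in 7.81% of all 32851 windows. The E-box CACGTG occurred in 3 windows (15.8%; Bex4, Mapk12 and Sgcd) against 7.15%, and the E-box CATGTG in 0 against 14.2%. The GATA type motifs AGATAA and TGATAA occurred in Ano2 alone, in 1 window (5.26%) against 11.2% and in 2 windows (10.5%) against 9.05%. TATAAA occurred in 1 window (5.26%, Pcp4l1) against 13.6%, and TGACGTCA in 0 against 1.79%. A match is a description of the letters, not a site that a factor was shown to bind. The sequences below are upstream stretches from RefSeq, printed because they hold the 2 motifs found in more than 2 genes: capitals mark CACGTG in Bex4 (chrX:136138746-136138995, plus strand) and Mapk12 (chr15:89140704-89140953, minus strand), and TGANTCA in the neighbours Osgin1 (chr8:119436897-119437117, plus strand) and Necab2 (chr8:119446469-119446718, plus strand). The Osgin1 stretch precedes a RefSeq start that lies inside the longer gene annotated by GENCODE.
Bex4: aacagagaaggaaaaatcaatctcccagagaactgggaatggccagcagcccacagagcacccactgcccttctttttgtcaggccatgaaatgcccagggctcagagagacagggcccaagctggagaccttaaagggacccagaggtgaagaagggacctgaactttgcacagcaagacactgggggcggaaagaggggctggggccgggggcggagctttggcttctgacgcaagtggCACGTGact
Mapk12: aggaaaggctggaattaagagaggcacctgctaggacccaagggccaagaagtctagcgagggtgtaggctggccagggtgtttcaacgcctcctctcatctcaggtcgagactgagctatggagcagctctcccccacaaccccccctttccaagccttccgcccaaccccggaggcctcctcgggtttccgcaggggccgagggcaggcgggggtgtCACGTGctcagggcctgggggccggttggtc
Osgin1: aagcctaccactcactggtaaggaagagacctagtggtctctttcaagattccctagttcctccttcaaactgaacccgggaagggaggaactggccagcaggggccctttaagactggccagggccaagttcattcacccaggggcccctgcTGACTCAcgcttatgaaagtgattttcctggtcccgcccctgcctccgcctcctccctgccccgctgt
Necab2: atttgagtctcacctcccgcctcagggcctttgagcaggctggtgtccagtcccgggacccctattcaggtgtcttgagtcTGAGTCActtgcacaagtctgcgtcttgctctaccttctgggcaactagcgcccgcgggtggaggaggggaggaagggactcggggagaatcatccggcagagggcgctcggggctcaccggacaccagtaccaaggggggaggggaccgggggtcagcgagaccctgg
The motif begins 9 bases before the RefSeq start in Bex4, 31 before it in Mapk12, 97 in Osgin1 and 169 in Necab2.

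Among the signalling genes, Mapk12 (ENSMUSG00000022610.10, GRCm38 chr15:89130584-89140703, minus strand) encodes p38 gamma, a stress-activated MAP kinase. It measured 149, 108, 102, 112 and 76.1 CPM in untreated libraries 1 to 5. In MC903 resident libraries 6 to 10 it measured 23.8, 65.1, 31.4, 61.4 and 63.8 CPM. In bone marrow libraries 11, 13, 14 and 15 it measured 0.0817, 0, 0.405 and 0.801 CPM. All 5 MC903 resident values lay under the lowest untreated value and all 5 lay far above the highest bone marrow value, so the 3 groups did not overlap. Mst1r (chr9:107906873-107920383, plus strand) encodes RON, the receptor tyrosine kinase for macrophage-stimulating protein. Its untreated values were 129.8, 39.0, 99.9, 66.5 and 81.9 CPM, its MC903 resident values were 51.9, 52.0, 40.3, 35.9 and 52.5 CPM and its bone marrow values were 0, 0.944, 1.3 and 0.701 CPM. Library 2, the lowest untreated library, lay within the MC903 resident range. Fgf12 (ENSMUSG00000022523.10, chr16:28160098-28753068, minus strand) encodes an FGF homologous factor, which stays inside the cell and binds voltage-gated sodium channels. Untreated libraries held 19.3, 12.4, 12.5, 10.9 and 16.4 CPM and MC903 resident libraries held 14.2, 18.0, 20.9, 6.78 and 9.97 CPM, with overlapping ranges. It had 0 counts in all 4 bone marrow libraries. The untreated mean of 14.3 ± 3.46 CPM was 117-fold the level that 3 counts would give there, averaged over the 4 libraries.

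The genes of calcium and ion handling were likewise present in every untreated library. Pcp4l1 (ENSMUSG00000038370.6, chr1:171173262-171196268, minus strand) encodes a small protein related to the calmodulin regulator Pcp4. Its values were 105, 88.3, 82.2, 109 and 181 CPM in untreated libraries, 35.1, 40.7, 39.3, 43.4 and 36.9 CPM in MC903 resident libraries and 0, 2.33, 0 and 0.15 CPM in bone marrow libraries. The MC903 resident values were close to each other (mean 39.1 ± 3.20 CPM, SD, n = 5) and lay below every untreated value. Ano2 (chr6:125690419-126040126, plus strand) encodes a calcium-activated chloride channel. It measured 21.5, 32.8, 32.9, 16.7 and 11.2 CPM in untreated libraries, 23.3, 30.0, 22.9, 41.2 and 8.46 CPM in MC903 resident libraries and 0.163, 0.126, 0.202 and 1.70 CPM in bone marrow libraries. The resident groups overlapped across most of their range, and library 15 held the highest bone marrow value. Necab2 (chr8:119446719-119472640, plus strand) encodes a calcium-binding protein with EF-hands. Its values were 16.2, 33.0, 32.0, 33.4 and 48.4 CPM in untreated libraries, 25.9, 23.2, 11.3, 13.5 and 9.97 CPM in MC903 resident libraries and 0, 0, 0.121 and 0.651 CPM in bone marrow libraries. Only untreated library 1 fell among the MC903 resident values.

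Cdh9, Sgcd, Ppfibp1 and Col12a1 act in adhesion, membrane anchorage or matrix. Cdh9 (ENSMUSG00000025370.7, chr15:16728756-16857094, plus strand), a type II cadherin, measured 34.3, 51.7, 43.9, 32.4 and 49.5 CPM in untreated, 37.6, 35.4, 50.4, 45.9 and 49.2 CPM in MC903 resident and 0, 0, 2.23 and 0.701 CPM in bone marrow libraries. The resident groups shared their range, and library 14 alone among the bone marrow libraries was above 1 CPM. Sgcd (ENSMUSG00000020354.15, chr11:46896253-47988969, minus strand) encodes delta-sarcoglycan of the dystrophin-associated complex. Its values were 35.2, 29.8, 22.8, 28.8 and 29.1 CPM in untreated, 11.9, 10.9, 15.1, 7.29 and 20.1 CPM in MC903 resident and 0, 0, 0 and 0.601 CPM in bone marrow libraries. Each MC903 resident value was below each untreated value, and library 15 held the only bone marrow counts. Ppfibp1 (chr6:146888487-147032025, plus strand) encodes liprin beta 1, a scaffold protein. It measured 22.9, 17.6, 23.4, 14.1 and 12.2 CPM in untreated, 13.3, 24.5, 21.7, 17.2 and 13.1 CPM in MC903 resident and 2.29, 0, 0 and 0.751 CPM in bone marrow libraries, with resident groups that overlapped. Col12a1 (ENSMUSG00000032332.17, chr9:79598991-79718831, minus strand) encodes a chain of collagen XII, a fibril-associated collagen. It measured 12.3, 34.7, 12.5, 10.3 and 17.8 CPM in untreated, 0.908, 12.1, 2.37, 2.99 and 0.830 CPM in MC903 resident and 0.0817, 0, 1.05 and 2.55 CPM in bone marrow libraries. It was the only gene of the set whose MC903 resident and bone marrow values overlapped, and library 7 lay within the untreated range. MC903 resident library 7, the highest for Col12a1, also had the largest sum over the 7 fibroblast markers (45.5 CPM, against a group median of 13.4 CPM and at most 11.7 CPM in untreated libraries), and the part of this in the Col12a1 values was not tested. With libraries 7 and 8 left out, the Col12a1 mean in MC903 resident cells was 9.0% of the untreated mean, against 21.9% with all 5.

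Of the genes of stress and metabolism, Pmaip1 (ENSMUSG00000024521.8) encodes Noxa, a BH3-only protein that promotes apoptosis. Its values were 54.2, 37.2, 54.7, 14.4 and 59.9 CPM in untreated libraries, 4.60, 10.7, 7.88, 9.35 and 4.82 CPM in MC903 resident libraries and 2.20, 0.944, 0 and 1.55 CPM in bone marrow libraries. Every MC903 resident value lay below every untreated value and above every bone marrow value. Osgin1 (chr8:119434124-119446256, plus strand) encodes an inhibitor of growth that is induced by oxidative stress. It measured 82.8, 26.1, 21.3, 25.1 and 88.7 CPM in untreated, 90.7, 19.9, 4.06, 8.46 and 24.6 CPM in MC903 resident and 0.163, 1.51, 0.243 and 2.45 CPM in bone marrow libraries. Its untreated values were the most scattered of the set (coefficient of variation 69.3%). Among resident libraries, 1, 5 and 6 were high and the others were at 26.1 CPM or less. Cyp4b1 (chr4:115624725-115647723, minus strand), a cytochrome P450 monooxygenase, measured 10.6, 30.7, 20.7, 12.6 and 14.8 CPM in untreated, 12.8, 8.15, 1.91, 5.05 and 26.3 CPM in MC903 resident and 0.0817, 0.126, 0 and 0.250 CPM in bone marrow libraries. Library 10 was above all untreated libraries but library 2, while libraries 7, 8 and 9 were below all of them.

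The remaining genes included the most abundant. Bex4 (ENSMUSG00000047844.3, chrX:136138996-136140443, plus strand) belongs to the family of small brain-expressed X-linked proteins. Its values were 165, 105, 201, 141 and 178 CPM in untreated, 50.2, 83.5, 99.4, 82.8 and 104 CPM in MC903 resident and 0.0817, 0, 0 and 1.95 CPM in bone marrow libraries. The highest MC903 resident value (library 10) lay only just under the lowest untreated one (library 2). Lrrc66 (ENSMUSG00000067206.3, chr5:73606642-73632526, minus strand) encodes a protein with leucine-rich repeats. It measured 22.1, 15.7, 16.3, 39.2 and 18.6 CPM in untreated and 4.09, 0.286, 11.7, 0.421 and 8.50 CPM in MC903 resident libraries. MC903 resident libraries 7 and 9 were near 0, and all 5 were below the untreated range. In the bone marrow libraries it had 1 count in all, in library 15. The untreated mean of 22.4 ± 9.74 CPM was 183-fold the level that 3 counts would give there, averaged over the bone marrow libraries. Aard (chr15:52040107-52045722, plus strand), named for a domain rich in alanine and arginine, measured 36.4, 22.3, 70.3, 79.1 and 80.9 CPM in untreated, 19.9, 52.5, 13.9, 43.1 and 99.4 CPM in MC903 resident and 0.0817, 0.189, 0 and 0.10 CPM in bone marrow libraries. The untreated range lay inside the MC903 resident range, with the highest value in library 10 and the lowest in library 8.

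**Figure D1:**
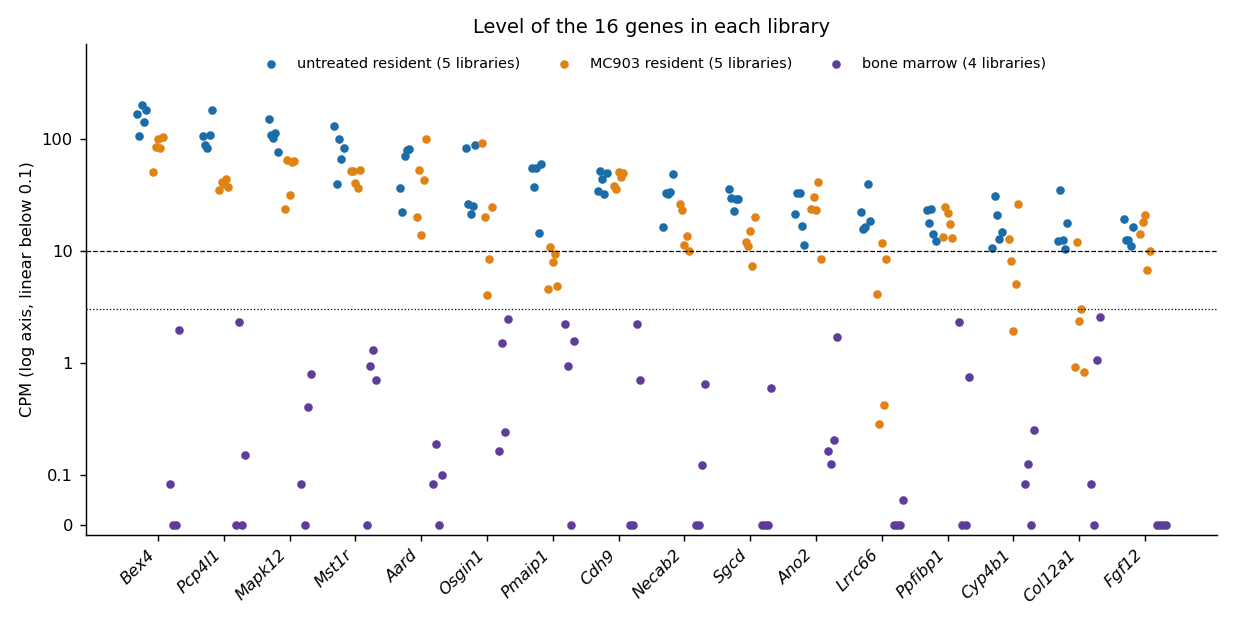
The 16 genes stand along the horizontal axis and each point is 1 library, with its level in CPM on a vertical log axis that turns linear below 0.1, coloured by group (5 untreated resident, 5 MC903 resident and 4 bone marrow libraries), and dashed and dotted lines mark 10 and 3 CPM. All untreated points lie at 10 CPM or more and all bone marrow points under 3 CPM by the choice of genes, while the MC903 resident points run from 0.286 CPM for Lrrc66 to 104 CPM for Bex4.

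Per kilobase of exon (RPKM), the scale on which levels of different genes can be compared, Bex4 was the highest in untreated cells at 189 ± 43.9 RPKM (SD, n = 5). Pcp4l1 followed at 71.7 ± 25.2 RPKM, Aard at 42.9 ± 19.9 RPKM and Mapk12 at 28.7 ± 6.89 RPKM. The spreads of Aard and Pcp4l1 overlapped, as did those of Aard and Mapk12. Col12a1 was the lowest, at 1.15 ± 0.656 RPKM, with 15230 bases of annotated exon. Summed over the 16 genes, untreated libraries held 684 to 965 CPM, MC903 resident libraries 394 to 533 CPM and bone marrow libraries 5.23, 6.17, 5.54 and 15 CPM. The sum in MC903 resident libraries was 47.4% to 64.1% of the untreated mean and that in bone marrow libraries was 0.628% to 1.80%. Of the 64 bone marrow values, 26 were 0 counts and 52 were under 1 CPM. Library 15 was the highest bone marrow library for 9 of the 16 genes, and its macrophage markers stood at the level given above. These were bulk samples, in which fewer cells of a type that expresses a gene and less RNA of it per cell cannot be told apart.

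The rule's limits ran close to several genes. Just inside 10 CPM in the lowest untreated library were Col12a1 (10.3 CPM), Cyp4b1 (10.6 CPM), Fgf12 (10.9 CPM), Ano2 (11.2 CPM) and Ppfibp1 (12.2 CPM). Just outside it were Sel1l3 (9.28 CPM), Nr3c2 (8.77 CPM), Dnajb13 (8.31 CPM), Camk2n1 (7.0 CPM) and Fhit (6.95 CPM). Just inside 3 CPM in the highest bone marrow library were Col12a1 (2.55 CPM), Osgin1 (2.45 CPM), Pcp4l1 (2.33 CPM), Ppfibp1 (2.29 CPM) and Cdh9 (2.23 CPM), and just outside it were Tcaf2 (3.27 CPM), Dnah14 (3.80 CPM), Stk32b (4.20 CPM), Adamts1 (4.25 CPM) and Nostrin (4.28 CPM).

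The MC903 resident libraries took no part in the choice, so they show which of the 16 genes resident cells kept in treated skin. The bone marrow libraries did take part and also came from treated mice, so the choice can favour genes lowered with the treatment, which was not tested. In all 5 MC903 resident libraries, 7 of the 16 (43.8%) reached 10 CPM: Bex4, Pcp4l1, Mapk12, Mst1r, Aard, Cdh9 and Ppfibp1. With a limit of 5 CPM it was 11 of 16, and with 3 CPM it was 13 of 16, where 97.6% and 98.9% of the other 5829 protein-coding genes at 10 CPM or more in every untreated library reached those limits. No gene of the set was under 3 CPM in all 5 MC903 resident libraries, which was also true of all the other 5829 genes with at least 10 CPM in every untreated library. Of those 5829 protein-coding genes, 5316 (91.2%) reached 10 CPM in every MC903 resident library, as did 4404 of the 4907 (89.7%) whose untreated mean lay within the range of the 16 genes. Leaving out libraries 7 and 8, the count stayed at 7 of 16, while it was 8 without library 9 and 9 without library 10. Single MC903 resident libraries held 13, 14, 12, 9 and 10 of the 16 genes at 10 CPM or more, in the order of libraries 6 to 10.

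**Figure D2:**
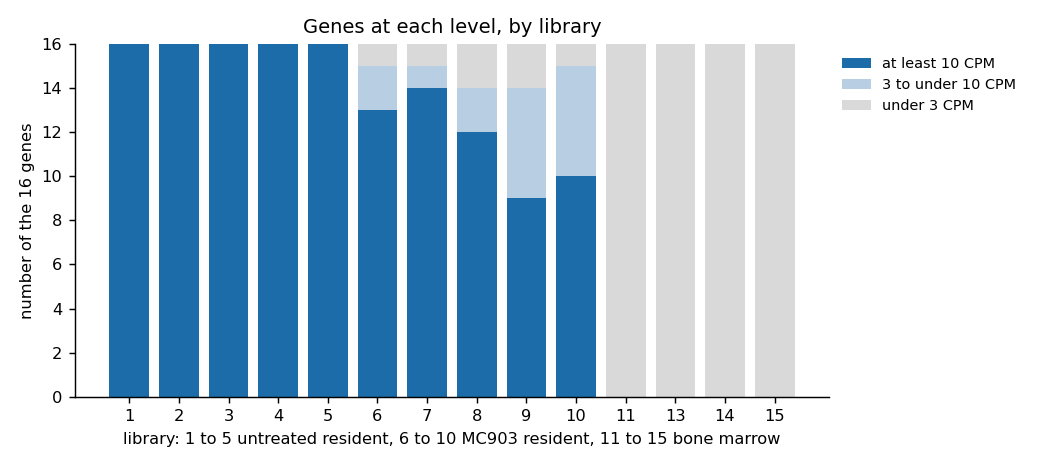
Each bar is 1 of the 14 libraries and is split into the numbers of the 16 genes at 10 CPM or more, at 3 to under 10 CPM and under 3 CPM. The untreated and bone marrow bars are fixed by the choice of genes, and in the MC903 resident bars 9 to 14 genes reach 10 CPM and 1 or 2 are under 3 CPM.

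In 6 genes every MC903 resident library lay below every untreated library: Bex4, Pcp4l1, Mapk12, Pmaip1, Sgcd and Lrrc66. That pattern held for 2.36% of the 21014 genes tested and for 441 (7.57%) of the other 5829 genes at 10 CPM or more in untreated cells. Their untreated values chose the genes, so this share is a description. The mean in MC903 resident cells was under 50% of the untreated mean for 6 genes: Pmaip1 (17.0%), Col12a1 (21.9%), Lrrc66 (22.4%), Pcp4l1 (34.6%), Sgcd (44.8%) and Mapk12 (44.9%). It was 97.6% for Fgf12, 99.6% for Ppfibp1, 103% for Cdh9 and 109% for Ano2. Fitted to the counts of all genes with edgeR's quasi-likelihood test over all 14 libraries (p-values adjusted by Benjamini and Hochberg over 21014 genes, called when under 0.05), 1 of the 16 was called lower and none was called higher in MC903 against untreated resident cells. In the same comparison 1.68% of all genes tested were called lower and 0.571% higher. The untreated arm was held at 10 CPM or more by the choice, which favours genes with high untreated values.

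The gene called lower was Pmaip1, which fell by 2.75 on the log2 scale (SE 0.667, adjusted p = 0.0282, edgeR, 5 against 5 libraries), from 44.1 ± 18.7 to 7.47 ± 2.72 CPM (mean ± SD). That call was kept without untreated library 4 and lost when any other of the 10 resident libraries was left out, and also without libraries 7 and 8 together. Across 16 alternative settings its log2 fold change stayed between -2.88 and -2.52, its adjusted p ran from 1.86e-05 to 0.199, and 6 settings called it. The next largest fitted differences were those of Col12a1 (log2 -2.46, SE 1.02, adjusted p = 0.277 by edgeR), Lrrc66 (log2 -2.32, SE 0.838, adjusted p = 0.185) and Pcp4l1 (log2 -1.72, SE 0.817, adjusted p = 0.421), none of which passed. Across the 16 alternative settings Col12a1 ran from -3.50 to -2.05, Lrrc66 from -3.46 to -1.92 and Pcp4l1 from -1.80 to -1.42. Sgcd had a log2 fold change of -1.31, SE 0.731, adjusted p = 0.51 by edgeR, and Mapk12 one of -1.28, SE 0.490, adjusted p = 0.225. Bex4 was at log2 -1.07, Mst1r at log2 -1.0 and Necab2 at log2 -1.17, with edgeR adjusted p of 0.665, 0.383 and 0.512. Osgin1, Cyp4b1 and Aard were at log2 -0.91, -0.81 and -0.45, with edgeR adjusted p of 0.758, 0.753 and 0.832. Single libraries moved these values: with 1 of the 10 resident libraries left out, Osgin1 ran from -1.85 (without library 6) to -0.51 (without library 5), Cyp4b1 from -1.56 (without library 10) to -0.52 (without library 8) and Aard from -1.05 (without library 10) to -0.20 (without library 6). Fgf12, Ppfibp1, Cdh9 and Ano2 had fitted log2 fold changes of -0.25, -0.18, -0.11 and -0.02, and edgeR adjusted p of 0.921, 0.967, 0.981 and 0.995.

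All 16 fitted log2 fold changes were below 0, with a median of -1.04, while the median over all genes tested was 0.24 and 40.0% of those were negative. Over the other 5829 genes at 10 CPM or more in untreated cells the median was -0.25, 70.0% were negative and 342 (5.87%) were called lower. Of the 16, 13 lay below that median of -0.25, and Cdh9, Ano2 and Ppfibp1 lay above it. The 16 were also chosen to be low in a group from treated mice and the 5829 were not, so these values are a description. With DESeq2's size factors the median of all genes was 0.40 and 14 of the 16 were negative, Cdh9 and Ano2 having turned positive. The same scaling moved the calls over all genes from 120 higher and 353 lower to 207 higher and 294 lower. The number of the 16 genes called depended on the test: 7 were called with limma and sample quality weights (Bex4, Pcp4l1, Mapk12, Pmaip1, Sgcd, Lrrc66 and Col12a1), where 1358 of all genes were called. With only the 2 resident groups in the fit 5 were called, among 662 genes, with no filter on low counts 2 were, among 659, and with DESeq2's Wald test 1 was (Pmaip1), among 1072. By edgeR without libraries 7 and 8 it was 0, among 189 genes called, and 3 of the 16 had an unadjusted p under 0.05, as did 9.23% of all genes tested and 19% of the other 5829 genes. With all libraries, at an unadjusted p under 0.05 by edgeR, 5 of the 16 passed, beside 12.6% of all genes tested and 26.9% of the other 5829 genes at 10 CPM or more in untreated cells.

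**Figure D3:**
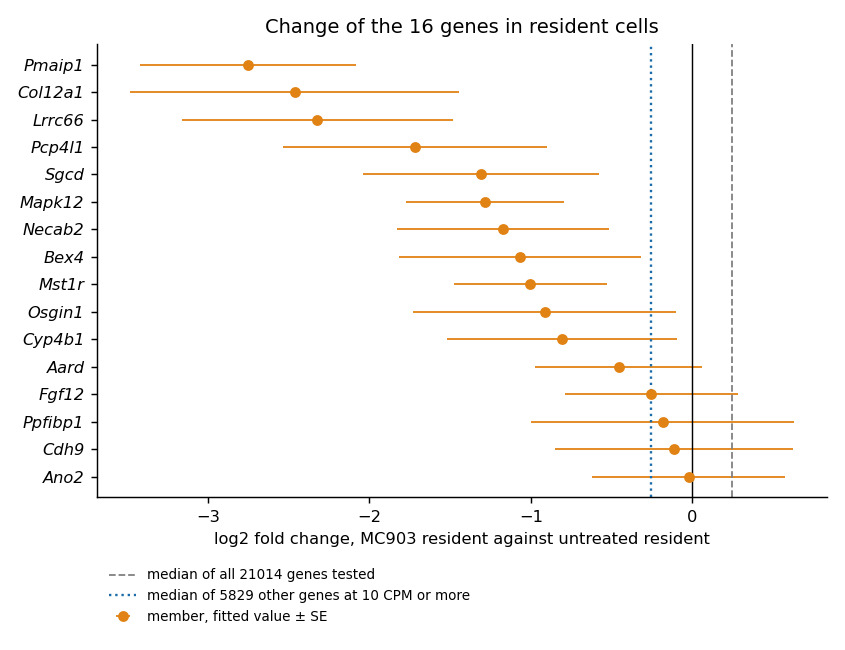
Each point gives the fitted log2 fold change of each of the 16 genes in MC903 against untreated resident cells with bars of 1 standard error, with vertical lines at 0, at the median of all genes tested (0.24) and at that of the 5829 other genes (-0.25). Pmaip1, at -2.75, is the only gene called by edgeR, and Aard, Fgf12, Ppfibp1, Cdh9 and Ano2 lie within 1 standard error of 0.

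In the bone marrow against the MC903 resident libraries, which share treatment and differ in cell label, 14 of the 16 genes were called lower by edgeR and 0.952% of all genes tested were called lower (1.32% were called higher). The bone marrow values were held under 3 CPM by the choice, so the count is printed without being read as a result. Pmaip1 (log2 -2.49, adjusted p = 0.0825 by edgeR) and Col12a1 (log2 -1.82, adjusted p = 0.398 by edgeR) were the exceptions. In 15 of the 16, every MC903 resident library lay above every bone marrow library, a pattern held by 5.23% of all genes tested. Without library 15, 14 of the 16 were likewise called, without library 11 it was 13, without libraries 7 and 8 it was 12, and with only these 2 groups in the fit it was 10. Among the genes whose MC903 resident mean was near the untreated one, Cdh9 averaged 43.7 ± 6.81 CPM (SD, n = 5) there and 0.732 ± 1.05 CPM (SD, n = 4) in bone marrow libraries, and Ano2 averaged 25.2 ± 11.9 and 0.548 ± 0.770 CPM (0.164 ± 0.0382 CPM in bone marrow without library 15). The comparisons of MC903 resident cells with untreated and with bone marrow cells share libraries 6 to 10, so their values are set side by side here and not correlated.

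Relatives of the 16 genes were family members or partners, chosen after the names of the 16 were known. The partners were sodium channels for Fgf12, proteins of the dystrophin complex for Sgcd and the ligands Mst1 and Hgf in the group of Mst1r. Of 98 relatives in the table, 61 were under 3 CPM in every bone marrow library, and all 61 were also under 10 CPM in every untreated library. Of the 98, 16 reached 10 CPM in every untreated library. Of these, 12 also did so in every bone marrow library, against 84.3% of the other 5829 genes at 10 CPM or more in untreated cells. A relative at that untreated level and under 3 CPM in every bone marrow library would itself belong to the set, so none could be found here. In bone marrow against untreated resident cells edgeR called 4 of the 16 relatives lower and none higher (4 had an unadjusted p under 0.05). The calls of this comparison, here and in the lists below, were not repeated with another test or with a library left out. Over all genes tested 3.37% were called lower and 3.49% higher, and over the other 5829 genes, which met the same untreated limit as these relatives, 9.66% were called lower and 7.55% higher. The 4 were Tceal8, a Bex relative (93.7 ± 51.9 to 26.6 ± 7.73 CPM, adjusted p = 0.00412), Sgce, the sarcoglycan epsilon (58.5 ± 28.8 to 20.1 ± 8.87 CPM, adjusted p = 0.0131), Ppfibp2, liprin beta 2 (32.1 ± 10.3 to 9.93 ± 3.12 CPM, adjusted p = 0.0164), and Scn11a, a voltage-gated sodium channel (51.9 ± 14.4 to 14.6 ± 12.1 CPM, adjusted p = 0.0159), given as means ± SD with n = 5 and n = 4 and p-values by edgeR. Without library 15 the bone marrow means of the 4 were 28.7 ± 7.93, 21.9 ± 9.95, 9.01 ± 3.10 and 9.40 ± 7.38 CPM in the same order (n = 3). Mapk14, which encodes p38 alpha, measured 109 ± 22.2 CPM in untreated and 95.5 ± 39.8 CPM in bone marrow libraries (log2 fold change -0.19, adjusted p = 0.776 by edgeR). Bex3 measured 77.4 ± 11.4 CPM in untreated and 71.1 ± 25.9 CPM in bone marrow libraries (log2 fold change -0.11, adjusted p = 0.896 by edgeR). Sgcb, the sarcoglycan beta and the gene next to Lrrc66, measured 49.1 ± 15.1 and 54.8 ± 18.8 CPM in the same groups (adjusted p = 0.833 by edgeR).

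**Figure D4:**
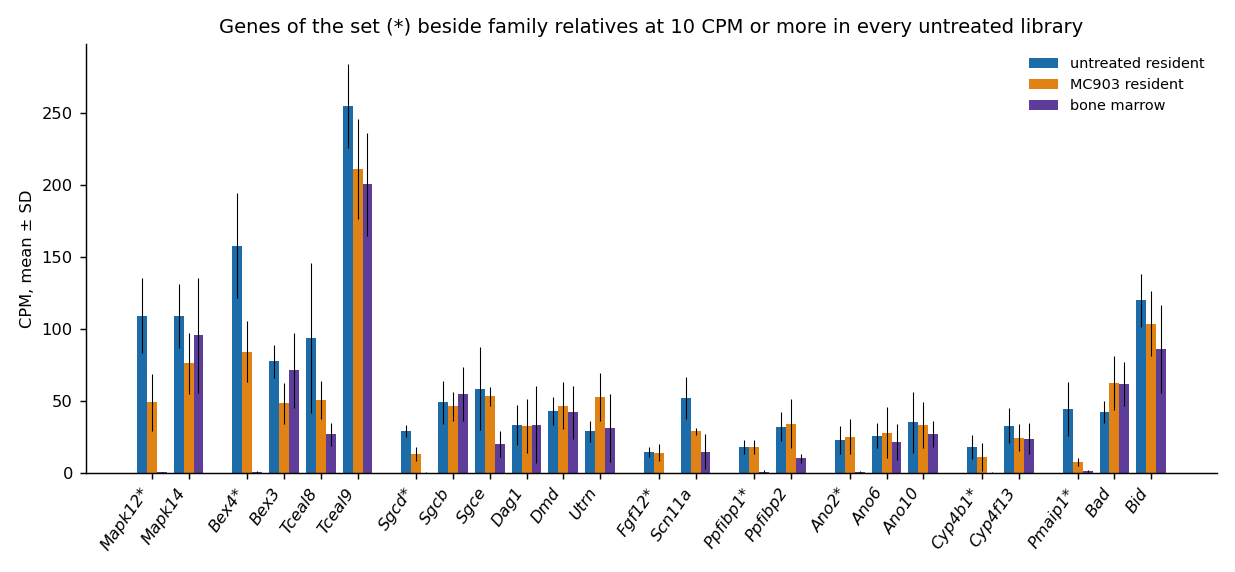
Bars give the mean CPM and lines the SD in untreated resident (n = 5), MC903 resident (n = 5) and bone marrow libraries (n = 4), for genes of the set (starred) beside the relatives (family members or partners) that reached 10 CPM in every untreated library. The bone marrow bars of the starred genes are at or near 0, those of Tceal8, Sgce, Ppfibp2 and Scn11a stand at 26.6, 20.1, 9.93 and 14.6 CPM, and that of Mapk14 stands at 95.5 CPM.

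Longer lists covered the wider pathways. In the p38 list of 10 kinases and partners, 2 genes fell in MC903 against untreated resident cells by edgeR: Map2k3, an upstream kinase of p38, from 556 ± 119 to 209 ± 35.1 CPM (n = 5 and 5, adjusted p = 4.06e-05), and Mapkapk3, a kinase downstream of p38, from 112 ± 15 to 54.8 ± 15.2 CPM (adjusted p = 0.0111). The call of Mapkapk3 was lost without library 1 (edgeR adjusted p = 0.0539), library 6 (0.0626) or libraries 7 and 8 together (0.0684), DESeq2 also called 2 genes of the list lower, and limma called 4. In bone marrow against untreated cells Map2k3 was called lower (adjusted p = 0.0157 by edgeR). Mapk12 was chosen by its values in these groups, so its call is not counted. Map2k3 averaged 320 ± 68.7 CPM in bone marrow libraries, which was higher than in MC903 resident libraries (log2 fold change 0.79, adjusted p = 0.0323 by edgeR). That call was lost without libraries 7 and 8 together (edgeR adjusted p = 0.177), when any 1 of libraries 6 to 9, 13, 14 and 15 was left out (0.0535 to 0.118), with DESeq2's size factors in edgeR (0.082) and with only the 2 groups compared in the fit (0.0859). In the Hippo list of 21 genes, which act on the coactivators Yap1 and Wwtr1, edgeR called 0 in MC903 against untreated resident cells (1 had an unadjusted p under 0.05, and DESeq2 and limma called 1 each) and called 2 lower in bone marrow against untreated cells. These were Amotl1, an angiomotin that binds Yap1 (18.3 ± 10.2 CPM untreated, 29.7 ± 9.94 CPM MC903 resident, 0.103 ± 0.124 CPM bone marrow and 0.0540 ± 0.0935 CPM without library 15, adjusted p = 4.46e-05 by edgeR), and Wwtr1 (10.7 ± 5.51, 11.5 ± 2.70 and 0.462 ± 0.828 CPM, adjusted p = 0.0256 by edgeR). In the Bex and Tceal list of 12 genes, edgeR called 0 in MC903 against untreated cells (3 had an unadjusted p under 0.05, DESeq2 called 0 and limma 1). In bone marrow against untreated cells edgeR called Tceal8 lower. Bex4 was chosen by its values in these groups, so its call is not counted. In the list of 29 axon guidance receptors and ligands, the semaphorin Sema4d was higher in MC903 resident than in untreated cells (5.31 ± 2.64 against 0.482 ± 0.480 CPM, adjusted p = 0.00462 by edgeR), a call lost with only the 2 resident groups in the fit. In bone marrow against untreated cells the receptor Nrp1 was called lower (101 ± 82.8 against 240.4 ± 62.0 CPM), with overlapping ranges of 53.1 to 224 and 145 to 316 CPM. Plxnc1 (9.41 to 32.3 against 0.120 to 2.03 CPM) and Sema4d (23.1 to 49.9 against 0.155 to 1.32 CPM) were higher. For MC903 against untreated cells DESeq2 called 1 gene of that list higher, and limma called 1 lower and 3 higher. In the list of 13 connective tissue mast cell genes, the proteases Mcpt4, Cma1 and Tpsb2 were higher and Hdc, the enzyme that makes histamine, was lower in MC903 resident cells, and in bone marrow cells 1 gene (Mcpt4) was lower and 6 were higher than in untreated cells. For MC903 against untreated cells DESeq2 called 1 of these genes lower and 3 higher, and limma 3 lower and 3 higher. Over all genes tested the shares called are those given above (1.68% lower and 0.571% higher in MC903 resident cells, 3.37% and 3.49% in bone marrow cells). Medians of the fitted log2 fold change of bone marrow against untreated cells were -0.79 for the p38 list (-0.70 without Mapk12), -0.18 for the Hippo list, -1.83 for the Bex and Tceal list (5 of 12 genes tested, and -1.08 without Bex4), 0.33 for the axon guidance list and 0.40 for the connective tissue list, against -0.14 over all genes tested.

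The genes lay on 11 chromosomes, with 3 on chromosome 15 and 2 each on chromosomes 6, 8 and 9. Osgin1 and Necab2 on chromosome 8 are neighbours on the plus strand, with 463 bases from the end of Osgin1 to the start of Necab2, and counts alone cannot tell whether reads of one were assigned to the other. Lrrc66 and Sgcb, on the same strand, lie 223 bases apart, and Mapk12 lies 1783 bases from its near relative Mapk11. Mapk11 averaged 9.94 ± 8.67 CPM in untreated, 18.4 ± 7.12 CPM in MC903 resident and 1.5 ± 2.81 CPM in bone marrow libraries. How the counting handled reads shared between such genes is not given in the sources used here. Genes annotated within the 16, antisense ones included, averaged 1.07 CPM or less in each group. The median exon length was 3388 bases against 4618 bases for the other 5829 genes, and the median GC content of the longest transcript was 50.7% against 48.9%. The coefficient of variation between untreated libraries had a median of 38.1% for the 16 genes against 26.3% for the other 5829, and 11 of the 16 lay above 26.3%.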

How the data were processed

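RNA from small pools of sorted mast cells was amplified with SMART-Seq HT and made into libraries with Nextera XT, per the labels' protocols. The values deposited are counts per gene, unscaled whole numbers, with gene, exon positions, strand and length in its columns, per the file headers. STAR, featureCounts and the build mm10 are named in the submitters' processing notes. Their versions, the strand setting, the annotation and the handling of shared reads are not given in the sources used here, so values of antisense or near-identical genes are uncertain. Every one of the 14 count columns was used. Of 55487 identifiers, 55394 matched GENCODE M21 on GRCm38 without the version, and 55218 had the same coordinates.

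CPM were counts divided by library total, and RPKM were CPM per kilobase of exon. Groups were compared with edgeR 4.0.16 (R 4.3.3) on the deposited counts: filterByExpr, TMM factors, robust quasi-likelihood fit over all 14 libraries and Benjamini-Hochberg adjustment over the 21014 genes tested, with calls at an adjusted p under 0.05. All 16 genes passed the filter. The fit was also run on counts simulated with a smaller spread between libraries than the one fitted here (common dispersion 1.334). That run cannot show how the fit performs at the real spread. Alternatives were DESeq2 1.42.0, its size factors in edgeR, limma 3.58.1 with quality weights, no filter, only the groups compared, other limits, and leaving out each library. The alternative fits covered MC903 against untreated resident cells and bone marrow against MC903 resident cells. None was run for bone marrow against untreated resident cells. Leaving out libraries 7 and 8 together was added after seeing the data. The named genes were the extremes of level and fold change, genes called or at 0 counts, genes next to each limit and family members, a rule that takes in all 16. The 16 genes and the 5 pathway lists (p38, Hippo, Bex and Tceal, axon guidance, connective tissue mast cell) were chosen with earlier results of these data known, and the relatives after the 16 names were known.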

Additional observations from a re-analysis of the deposited data

Results flagged for a closer look

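In 48 groups of values (16 genes in 3 groups), 9 held a library whose gap to its nearest neighbour was large for the range of its group by Dixon's 95% limit. Of the 48, 47 had a range, since Fgf12 was at 0 in all bone marrow libraries. Chance gives about 1 such group in 20, but 7 of the 9 lay in groups whose values chose the genes, and where the other libraries are at 0 any count meets the limit, so the number is not read against that share. Of the 9, 5 were in bone marrow libraries, and 4 of those were library 15, which also held the macrophage markers. In library 15, Bex4 stood at 1.95 CPM, Ano2 at 1.70 CPM, Sgcd at 0.601 CPM and Lrrc66 at 0.0501 CPM, which was 1 count. In bone marrow library 13, Pcp4l1 stood at 2.33 CPM. In untreated library 5, Pcp4l1 stood at 181 CPM, and in untreated library 4, Lrrc66 stood at 39.2 CPM. In MC903 resident library 6, Osgin1 stood at 90.7 CPM, and in MC903 resident library 7, Col12a1 stood at 12.1 CPM.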

How the results depend on the processing

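The number of genes meeting the rule was 16, but 8 with limits of 20 and 3 CPM, 7 with limits of 10 and 1 CPM, and 16 to 26 when a library was left out (26 without bone marrow library 14 or without library 15). The number kept in MC903 resident cells was 7, or 11 at a limit of 5 CPM, and 7 to 9 when a library was left out. Over all genes, 473 were called in MC903 against untreated resident cells, against 1072 with DESeq2's Wald test, 1358 with limma, 189 without libraries 7 and 8, and 312 to 516 when a library was left out. Of the 16 genes 1 was called, against 2 with no filter, 7 with limma, 5 with only the resident groups, 0 without libraries 7 and 8, and 0 to 1 when a library was left out. In bone marrow against MC903 resident cells 477 genes were called, against 748 with no filter, 1720 with DESeq2, 2017 with limma, 315 with only these groups, 209 without libraries 7 and 8, and 302 to 704 when a library was left out (704 without library 15). With DESeq2's size factors those calls split into 167 higher and 242 lower, against 277 and 200. The cause was not tested for these.

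Fitted differences near 0 changed sign. Cdh9 was at log2 0.016 with DESeq2's size factors and with its Wald test, 0.011 without libraries 7 and 8, and -0.21 to 0.026 when a library was left out (above 0 without library 6 or 7). Ano2 was at 0.11 with DESeq2's size factors and Wald test, 0.0079 with only the resident groups, 0.041 without libraries 7 and 8, and -0.23 to 0.19 when a library was left out (above 0 in 6 of 10). With a library left out, Ppfibp1 ran from -0.27 to 0.0081 (above 0 without library 1 or 6) and Fgf12 from -0.39 to 0.021 (above 0 without library 9). The other 12 genes stayed below 0 under all 16 alternatives, and the median of the 16 ran from -1.17 to -0.90. No paired analysis was possible because the libraries carry a running number and the groups share none. At these totals a level under 0.0944 to 0.23 CPM cannot be told from 0.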

Other observations

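Genes that met the rule but for 1 library were named by leaving that library out. Without library 15, which held the macrophage markers, 10 more genes met the rule: Abat, Adamts1, Atp7a, Frmd4b, Il6ra, Mtus1, Sept10, Smim1, Stk32b and Tppp. Without untreated library 5, 7 more did, among them Amotl1, Pde10a and Spry4. With every gene type allowed, 3 genes without a protein product were added to the 16.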
